A study of Oryza sativa Japonica Group with 28 samples.

Results

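The ovular vascular trace (OVT) was compared with the cross cells (CC) of rice grains at 4 days after flowering (DAF). The comparison used 5 of the 28 libraries of the series, which were selected by the tissue and stage in their titles and in the table of normalised values: 3 of OVT (MM05, MM06 and MM13) and 2 of CC (MM05 and MM13). All 5 came from grains of Oryza sativa cv. Nipponbare grown in hydroponic culture at 28 °C, and the labels name no mutation or applied agent in either group. De-husked grains were frozen, sectioned and dissected by laser capture, and each preparation pooled 3 grains. The CC MM05 library was named 4 DAF in its title and in the table but carried 8 DAF in its stage label, and it was analysed as 4 DAF. OVT, CC and nucellar epidermis (NE) libraries shared MM numbers, and the labels did not state what a number marks. The title prefix was B for OVT MM13 and X for the other 4 libraries. Biological replicates that correlated poorly had been removed before deposit, so the spread between replicates is that of the libraries kept.

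The vascular trace runs along the ventral side of the caryopsis and is the maternal route by which sucrose, amino acids and minerals leave the phloem and xylem, pass the nucellar tissue and reach the filial endosperm. Cross cells form the green inner layer of the pericarp, whose chloroplasts assimilate carbon next to the developing seed. Differentiating vascular cells are a known site of auxin synthesis and response, whereas photosystem and light-harvesting proteins mark green tissue.

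The study designed primers for qPCR of genes chosen as characteristic of each tissue, and those for OVT (O1 to O3) and CC (C1 and C3) are shown because the levels of these genes open the results. The study took its primer genes from those that differed between tissues in these same libraries, so their levels are a description and no check of the dissection. O1 is Os04g0191400 on chromosome 4, O2 is Os05g0130600 on chromosome 5, O3 is Os01g0176700 on chromosome 1, C1 is Os02g0727100 on chromosome 2 and C3 is Os10g0116400 on chromosome 10. All are written in lower case from 5′ to 3′.
O1 forward: ctgtcactggaacagcctca
O1 reverse: gttcatctggctgttgtgga
O2 forward: ggcgagctcacttcttgttc
O2 reverse: acttgggcgcctttggtt
O3 forward: cacgtctcgaggaagagagg
O3 reverse: ccgatgttcttcaccggtat
C1 forward: gacctggagcagagttggag
C1 reverse: gagcagaggaagtcgtggag
C3 forward: attcttggtggttcgactgg
C3 reverse: ggacttgatggatggcaagt

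Expression was given as normalised signal per gene, a read count scaled by a factor of its own for each library and not divided by gene length. Total signal was 5260710 in OVT MM05, 5253060 in OVT MM06 and 7442820 in OVT MM13, against 4193530 in CC MM05 and 4213190 in CC MM13. Percents of a library's signal are therefore on another scale than the signals and log2 differences, and come out lower in OVT for equal signal. One read was worth 0.777 to 3.21 units of signal in the 5 libraries, from which 2316726 (OVT MM13) to 6760828 (OVT MM06) assigned reads were estimated. OVT MM13 was the shallowest, and 3 of its reads corresponded to 9.64 units, against 2.55 to 2.92 units in CC. On log2(signal + 10), Pearson's r across genes was 0.71 to 0.80 between OVT libraries, 0.86 between the CC libraries and 0.60 to 0.68 between OVT and CC. CC MM05 had r = 0.82 to 0.89 with the 3 NE libraries of 4 DAF and 0.69 with the single CC library of 8 DAF, and CC MM13 had 0.79 to 0.82 with NE and 0.69 with CC at 8 DAF. These correlations are across genes, which are not independent replicates.

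The primer genes of OVT were high in OVT, as their choice on these libraries fixed, whereas those of CC were low at this stage. In the order MM05, MM06 and MM13 for OVT and MM05 and MM13 for CC, which is kept throughout, O2 had signals of 8648, 9634 and 9696 in OVT against 7.78 and 2.55 in CC. O1 had 6578, 2148 and 11450 in OVT against 3.89 and 1.70 in CC, and O3, a G2-like transcription factor, had 1009, 667 and 1841 in OVT against 0.972 and 0 in CC. All OVT libraries lay above both CC libraries for the 3 genes. C1 (Os02g0727100), which the study placed among amino acid transporters, was at 0 in the 3 OVT libraries against 119 and 277 in CC. By group means it was at least 41.1-fold lower in OVT when 3 reads per library are taken as the floor. Every such fold below compares a group mean with the mean floor and is no bound for a single library. C3 (Os10g0116400) was at 0 in OVT against 5.83 and 2.55 in CC, and the CC primer gene Os06g0267900 was at 0 in all 5 libraries.

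Markers of the neighbouring tissues were given for both groups. Of the NE primer genes, Os08g0398500 was at 0 in all 5 libraries, Os07g0440900 had 0, 0 and 3.21 in OVT against 15.6 and 0.851 in CC, and Os09g0518200 had 0, 0 and 3.21 in OVT against 3.89 and 3.40 in CC. OsMADS29 (Os02g0170300), a MADS-box factor known for its role in degradation of the nucellus but no primer gene, had 0.480, 37.8 and 178 in OVT, 896 and 312 in CC and 1085, 1496 and 2518 in NE, and the adjusted p of OVT against CC was 0.092 (limma, Benjamini-Hochberg). Of the primer genes of the endosperm (EN), Os01g0593700 and Os04g0210700 were at 0 in both groups and Os07g0422700 only reached 1.70 in CC MM13. Genes with the nutrient reservoir term, which includes seed storage proteins, made up 0.508 to 2.02% of the signal in OVT and 0.425 to 1.68% in CC. Of the 1.68% in CC MM13, the single gene Os08g0189100 held 1.42%, and it held 23.4% of the signal of OVT MM21 at 8 DAF. The sum thus follows that gene and is no measure of storage protein or EN transcripts. Starch synthesis genes made up 0.116 to 0.201% in OVT and 0.172 to 0.338% in CC. Of 41 tested nutrient reservoir genes 1 was higher and 1 lower in OVT (2.44% each), and of 14 starch synthesis genes none was higher and 1 lower (7.14%). Of all tested genes 3.19% were higher and 4.25% lower. The nutrient reservoir counts were 2 higher without OVT MM06 or OVT MM13, 2 lower without CC MM13 and none lower without CC MM05 or OVT MM05, and the starch synthesis call was lost without CC MM05. The part of NE or EN transcripts in the differences reported below was not tested.

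Differences were estimated with limma on log2(signal + 10) in a fit over all 28 libraries, and calls were made at a Benjamini-Hochberg adjusted p below 0.05. Of 45990 genes, 27527 passed the filter on low values. In OVT, 877 genes were higher than in CC (3.19% of those tested) and 1169 were lower (4.25%). The signals of all OVT libraries lay above both CC libraries for 2858 genes (10.4%) and below both for 6127 genes (22.3%). Of the genes called higher 831 were apart in this sense, and of those called lower 1143, which the call itself favours. The median log2 difference of all tested genes was -0.22, or -0.18 when genes at 0 in one group were set to the bound that 3 reads allow. Leaving out CC MM05 reduced the calls to 489 higher and 702 lower, and leaving out CC MM13 reduced those higher to 493.

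Together the genes called higher held 27.76, 25.75 and 24.97% of the signal of the OVT libraries against 1.96 and 2.07% in CC, with a median over genes of 365 in OVT, 3.40 in CC and 5.34 in NE. Among them, 176 differed by more than 5 on the log2 scale, and 231 were at 0 in both CC libraries. The genes called lower held 0.420, 0.349 and 0.280% of the signal in OVT against 9.86 and 7.84% in CC, with a median over genes of 2.17 in OVT, 106 in CC and 27.4 in NE. Of these, 57 differed by more than 5 on the log2 scale, 300 were at 0 in all OVT libraries, and 238 had a higher mean in NE than in CC. Both sets were called on these same libraries, so the direction of their OVT and CC shares and medians was fixed by the choice. As bulk captures, the libraries do not separate fewer cells of a type from less RNA per cell.

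**Figure D1:**
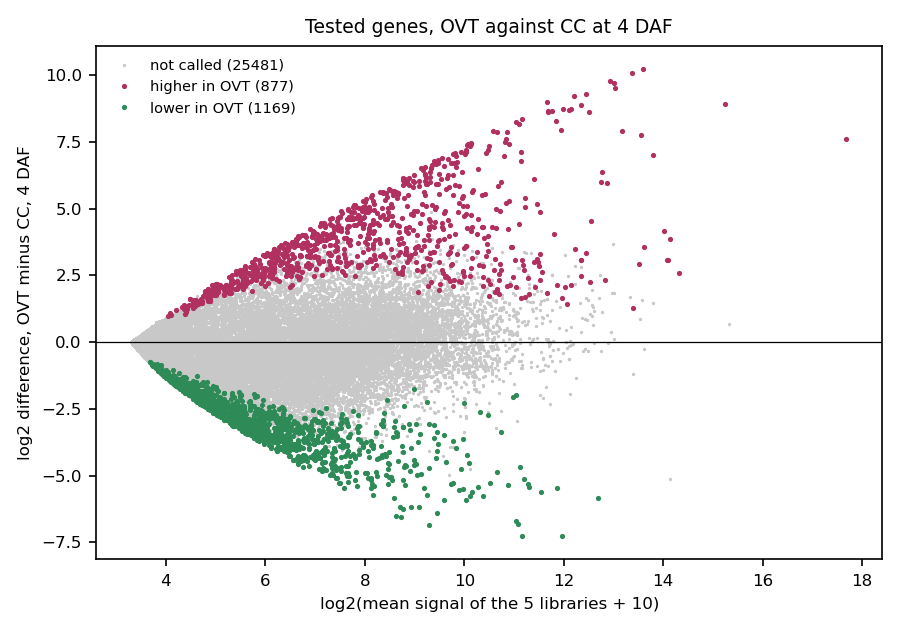
Log2 difference of OVT minus CC at 4 DAF against the log2 mean signal of the 5 libraries (signal + 10), each point a tested gene. The 877 genes higher in OVT extend above 10 on the log2 scale and to the highest mean signals, while the 1169 lower genes reach -7.25; low genes are pressed towards 0 by the added 10.

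The 15 largest differences among genes higher in OVT were between 8.66 and 10.24 on the log2 scale, with signals of 2148 to 83740 in OVT, 0 to 119 in CC and 1.06 to 259 in NE. For a gene with few or no reads in CC, the fitted difference depends on the added 10 and is not a bound. Os12g0476200, annotated as an integral membrane protein, had 24770, 16240 and 20920 in OVT against 8.75 and 5.10 in CC, a log2 difference of 10.24 ± 0.71 (SE, adjusted p = 4.0e-09, limma). Os05g0390300, without a GO term, had 18860, 12910 and 10220 in OVT against 9.72 and 6.81 in CC, a log2 difference of 9.54 ± 0.71. The 15 genes were chosen among those with all OVT libraries above both CC libraries, so this separation was fixed by the choice.

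Further genes of this group belonged to transcription, transport and metal binding. Os03g0727000, a TALE homeobox gene, had 5362, 4130 and 6769 in OVT against 0.972 and 0 in CC. TALE proteins include the KNOX factors that maintain meristematic cells. Os01g0974200, with a metal ion binding term, had 58660, 50760 and 83740 in OVT against 118 and 119 in CC, a log2 difference of 8.94 ± 0.77. The ABC transporter Os01g0695700 had 6014, 4658 and 11280 in OVT against 9.72 and 3.40 in CC. Members of the ABC family use ATP to move diverse solutes across membranes. Os06g0143700, with a sulfate transport term, had 7748, 13130 and 8058 in OVT against 15.6 and 11.9 in CC, and its neighbour by number Os06g0143750 gave 6725, 12160 and 7130 in OVT against 10.7 and 5.10 in CC. These values ran so close that both genes may share reads, and the use of strand in counting was not given in the sources used here. Only 5 of the 15 genes carried a gene ontology (GO) term in the deposited table. Their calls held without each of the 5 libraries in turn.

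**Figure D2:**
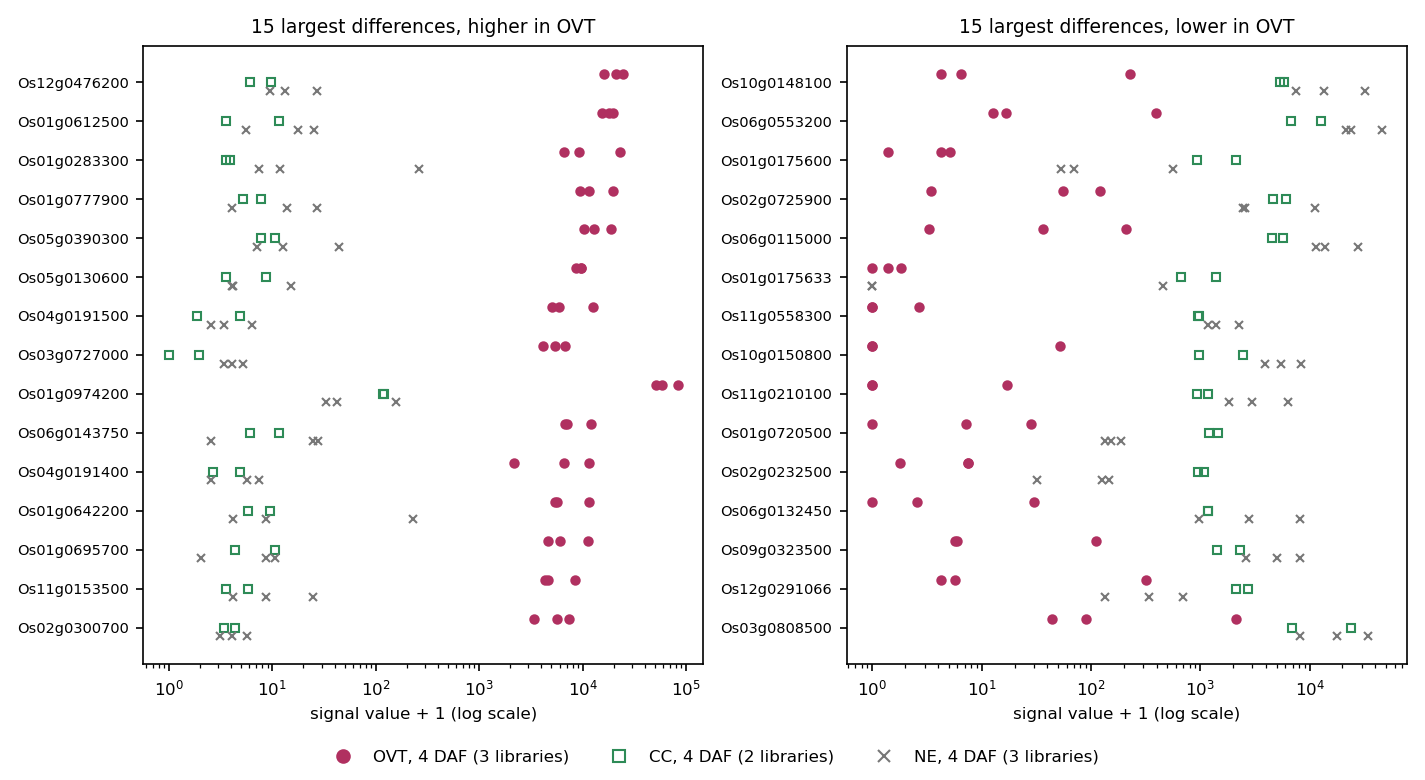
Signal per library (signal + 1, log axis) of the 15 genes with the largest differences higher in OVT (left) and lower in OVT (right), with OVT as filled circles, CC as open squares and NE as crosses. On the left OVT lies between 2148 and 83740 and CC at or below 119; on the right CC lies at or above 667 and NE is often as high as CC or higher.

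Among the 10 genes with the highest mean signal over the 5 libraries, 8 were higher in OVT and none was lower. Together they took 9.49 to 11.5% of the signal in OVT against 1.30 to 3.07% in CC. This mean holds more OVT than CC libraries, and total signal was larger in OVT. The choice therefore favours genes high in OVT, and the count and shares lean the same way. Os05g0111300, with a metal ion binding term, had 379100, 313500 and 354000 in OVT against 2521 and 1231 in CC, a log2 difference of 7.62 ± 1.11 (adjusted p = 6.0e-05, limma). It alone accounted for 7.21, 5.97 and 4.76% of the signal in the OVT libraries, against 0.0601 and 0.0292% in CC. The transport ATPase gene Os04g0656100 had 22400, 19820 and 37440 in OVT against 1163 and 1752 in CC, a log2 difference of 4.15 ± 0.92 (adjusted p = 0.0047, and 0.076 without CC MM05). Ion-pumping ATPases of this kind energise secondary transport. Os06g0194900, with the sucrose synthase term, had 22160, 29640 and 33120 in OVT against 883 and 4032 in CC, and its adjusted p of 0.043 became 0.054 to 0.44 when single libraries were left out. Sucrose synthase cleaves sucrose on its arrival in sink tissue.

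The other abundant genes included 2 that did not pass the test. Os11g0660500, without a GO term, had 26570, 25110 and 40580 in OVT against 4140 and 5883 in CC (adjusted p = 0.00024, limma). Os04g0498600 and Os04g0498650, neighbours by number with almost the same signal in every library, may share reads and were each higher in OVT by 3.07 on the log2 scale. Os04g0498600 carried the adenosylmethionine decarboxylase term, an activity of polyamine synthesis. Os08g0189100, a nutrient reservoir gene, had 23000, 26030 and 87910 in OVT against 9007 and 59940 in CC, and the groups overlapped. Os05g0405000, with the pyruvate, phosphate dikinase term, had 51.8, 4692 and 4797 in OVT against 30700 and 49210 in CC, a log2 difference of -5.12 ± 1.54 with an adjusted p of 0.053 (limma).

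Transporters of metals differed between OVT and CC in a limited set of genes. Of 60 metal transporter genes that the study listed (NRAMP, OPT, ZIP, cation, efflux and HMA families), 16 were higher and 2 lower in OVT. These were 26.7% and 3.33%, beside 3.19% higher and 4.25% lower of all tested genes, so the share lower was no larger than usual. The median log2 difference was 0.21. The study compiled its transporter, hormone and transcription factor lists on these same samples, so their counts are not independent evidence of a direction. The 60 genes together took 0.882, 0.887 and 0.640% of the signal in OVT against 0.115 and 0.136% in CC. This sum follows the most abundant members, with Os06g0676000 (below) a large part of it in OVT, and is no measure of the whole list. Of the 60 log2 differences, 36 were positive and 24 negative. Without CC MM05, 9 metal transporter genes were called higher. The gene Os06g0676000, an NRAMP member in the study's table, had 25450, 28250 and 16950 in OVT against 175 and 159 in CC, a log2 difference of 7.02 ± 0.96. NRAMP proteins carry divalent metals such as iron and manganese. Os01g0826000 of the HMA group had 4560, 3263 and 3030 in OVT against 3.89 and 0.851 in CC. Os03g0751100 of the OPT group, a family that moves peptides and metal chelates, had 1122, 2124 and 1600 in OVT against 2.92 and 0 in CC. The efflux gene Os02g0745100 had 1424, 720 and 3033 in OVT and was at 0 in both CC libraries, at least 631-fold higher in OVT, although its adjusted p of 0.0063 was 0.064 with CC MM05 left out and 0.053 with CC MM13 left out. The 2 lower genes were both of the HMA group. Os08g0405700 had 18.1, 20.98 and 16.1 in OVT against 407 and 426 in CC (adjusted p = 0.0054, and 0.052 without CC MM05), and Os02g0510600 had 2.47, 1.55 and 41.8 in OVT against 178 and 208 in CC (adjusted p = 0.035, and up to 0.17 with single libraries left out).

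Carriers of organic and inorganic nitrogen, sulfur and phosphorus were next examined. Of 37 genes in the study's amino acid transport list, 10 were higher (27.0%) and 1 was lower (2.70%) in OVT, with a median of 0.11. The count fell to 5 without CC MM05 and to 6 without CC MM13. Os05g0424000 had 3812, 3066 and 3595 in OVT against 1.95 and 0.851 in CC, and Os12g0181500 had 1422, 2032 and 1915 in OVT against 0.486 and 0 in CC. Os11g0155500 had 762, 848 and 614 in OVT against 1.95 and 1.70 in CC. For these 3 genes the CC libraries were close to 0 and none of them reached an OVT library. The 1 gene lower in OVT was the CC primer gene Os02g0727100. In the study's list of nitrate, sulfate and phosphate transport, 5 of 15 genes were higher (33.3%) and none was lower, with a median of 1.18. Besides Os06g0143700, these included Os01g0110100, with 812, 597 and 366 in OVT against 0.972 and 0.851 in CC, and Os01g0704100, with 73.2, 36.5 and 206 in OVT and 0 in both CC libraries (at least 38.4-fold higher in OVT). By contrast, the 59 tested genes under the GO term for oligopeptide transport had a median of 0.00. Of them 2 were higher and 2 were lower, 3.39% each, near the 3.19% higher and 4.25% lower of all tested genes. Without OVT MM13 these counts were 6 higher and 1 lower, and 1 was lower without OVT MM06.

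Water channels went both ways. Among 17 tested aquaporin genes 3 were higher (17.6%) and 2 lower (11.8%) in OVT, beside 3.19% and 4.25% of all tested genes (median 0.57). Os02g0629200 had 4253, 6173 and 9122 in OVT against 2.92 and 38.3 in CC, a log2 difference of 7.96 ± 0.90, and Os02g0823100 had 4637, 3885 and 4755 in OVT against 84.6 and 33.2 in CC. The opposite held for Os02g0232900, with 21.4, 31.9 and 260 in OVT against 2675 and 921 in CC (adjusted p = 0.0014, and 0.056 without CC MM05), and for Os06g0336200, with 17.3, 13.2 and 99.6 in OVT against 575 and 680 in CC (adjusted p = 0.028, and up to 0.16 with single libraries left out).

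Of 49 ABC genes in the study's table, 4 were higher (8.16%) and 6 lower (12.2%) in OVT, beside 3.19% and 4.25% of all tested genes. Their median was -0.85, or -0.95 with bounds. The count of lower genes was 1 with CC MM05 left out, 2 with OVT MM06 left out and 3 with CC MM13 left out, and that of higher genes was 2 with either CC library left out. Os08g0167000 had 1960, 2035 and 1597 in OVT against 0.972 and 0.851 in CC. Of 16 MATE genes, which export organic acids and other metabolites, 2 were higher (12.5%, and 1 gene without CC MM05). Among them was Os03g0839200 with 1066, 800 and 1028 in OVT against 3.89 and 1.70 in CC. Sugar carriers were higher for 1 and lower for 3 of 24 in the study's list, the 3 lower making 12.5% beside 4.25% of all tested genes. Their median was -0.15, and the 1 higher call was lost with CC MM05, CC MM13 or OVT MM05 left out. The cell wall invertase OsGIF1 (Os04g0413500), which hydrolyses sucrose outside the cell and is known for its function in grain filling, had 117, 1215 and 752 in OVT against 4.86 and 15.3 in CC. It was higher by 4.66 ± 1.26 on the log2 scale (adjusted p = 0.021), and its adjusted p was 0.0091 to 0.19 when single libraries were left out.

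Of the Aux/IAA genes called, all but 1 were higher in OVT. Aux/IAA proteins repress auxin response and are themselves induced by auxin, while ARF proteins are the transcription factors they bind. Of 22 Aux/IAA genes 11 were higher (50%) and 1 lower (4.55%) in OVT, beside 3.19% and 4.25% of all tested genes. Their median log2 difference was 2.27 (2.40 with bounds). Their summed share was 0.649, 0.470 and 0.275% of the signal in OVT against 0.164 and 0.110% in CC. The count of 11 was 4 with either CC library left out and 6 with OVT MM05 or OVT MM06 left out. OsIAA1 (Os01g0178500) had 930, 971 and 1452 in OVT against 23.3 and 23.0 in CC, a log2 difference of 5.06 ± 0.79. OsIAA20 (Os06g0166500) had 675, 490 and 135 in OVT against 1.95 and 0 in CC, and OsIAA18 (Os05g0523300) had 2416, 1413 and 247 in OVT against 56.4 and 22.1 in CC (adjusted p = 0.0031, and 0.060 without CC MM13). In OsIAA20 and OsIAA18 OVT MM13 was the lowest of the OVT libraries but still above CC. OsIAA8 (Os02g0723400) differed in direction, with 0.822, 108 and 9.64 in OVT against 332 and 675 in CC (adjusted p = 0.025, and up to 0.20 with single libraries left out).

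Enzymes of auxin synthesis were higher in OVT for 2 of 5 genes. OsYUCCA7 (Os04g0128900), a flavin monooxygenase of the final step to indole-3-acetic acid, had 2615, 2045 and 488 in OVT against 0.972 and 0 in CC, a log2 difference of 7.05 ± 0.69. OsFIB (Os01g0169800), the tryptophan aminotransferase of the preceding step, had 4061, 4693 and 2387 in OVT against 73.9 and 2.55 in CC, a log2 difference of 6.79 ± 0.90. Both stood apart from CC in every library. Among 14 ARF genes 3 were higher (21.4%, beside 3.19% of all tested genes) and none lower (median 1.74). OsARF19 (Os06g0702600) had 620, 498 and 678 in OVT against 11.7 and 14.5 in CC, and OsARF21 (Os08g0520500) had 3169, 1712 and 1536 in OVT against 151 and 106 in CC.

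The other hormone lists were mixed. Of 34 ethylene genes 9 were higher (26.5%) and 4 lower (11.8%) in OVT (median 0.61). The count of higher genes was 4 with either CC library left out and 5 with OVT MM05 left out. That of lower genes was 0 to 2 with any single library left out. Brassinosteroid genes were higher for 5 and lower for 3 of 29 (median -0.06), gibberellin genes higher for 5 and lower for 2 of 33 (median -0.06), and abscisic acid genes higher for 2 and lower for none of 61 (median -0.15). In this order the higher shares were 17.2, 15.2 and 3.28% and the lower shares 10.3, 6.06 and 0%. Beside the 3.19% higher and 4.25% lower of all tested genes, the abscisic acid share of higher genes was no larger than usual. The count of higher brassinosteroid genes was 1 with CC MM13 left out, 2 with OVT MM13 left out and 3 with CC MM05 or OVT MM06 left out. That of higher gibberellin genes was 2 with CC MM05, CC MM13 or OVT MM05 left out and 3 with OVT MM06 left out, and that of lower ones was 4 without OVT MM13 and 1 without CC MM05. For abscisic acid 0 genes were higher without CC MM05 and 1 without CC MM13, where 2 were lower. Only 1 of 21 cytokinin genes was called (3 were higher without OVT MM13 and 2 without OVT MM06), the type-A response regulator OsRR2 (Os02g0557800), a family that dampens cytokinin signalling. It had 1055, 650 and 716 in OVT against 60.3 and 0 in CC, a log2 difference of 4.91 ± 0.74.

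Transcription factors were called in opposite directions by family. The median of the 349 tested genes under the GO term for sequence-specific factors was 0.00. Of them 32 were higher (9.17%) and 14 lower (4.01%) in OVT, beside 3.19% and 4.25% of all tested genes. These counts were 19 and 6 without CC MM05 and 17 and 9 without CC MM13, and 9 were lower without OVT MM06. In the study's tables, DOF genes, zinc-finger factors several of which act in vascular tissue in Arabidopsis, were higher for 8 of 11 (72.7%). None was lower, with a median of 3.26 (4.02 with bounds). Without CC MM05 the DOF count was 5, and without CC MM13 it was 4. Os07g0508900 had 1070, 870 and 880 in OVT against 0.972 and 0.851 in CC. The DOF genes summed to 0.0574, 0.0547 and 0.0402% of the signal in OVT against 0.00153 and 0.00182% in CC.

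TALE homeobox genes were higher for 8 of 15 (53.3%, beside 3.19% of all tested genes) and lower for none (median 2.37). The count was 6 to 8 when single libraries were left out. Next to Os03g0727000, Os01g0302500 had 331, 302 and 238 in OVT and was at 0 in both CC libraries, at least 106-fold higher in OVT. Os05g0129700 had 330, 379 and 167 in OVT and was likewise at 0 in CC, at least 107-fold higher in OVT. MADS-box genes were higher for 8 of 24 (33.3%) and lower for none (median 1.88), with 5 called without CC MM13. Os08g0112700 had 811, 538 and 871 in OVT against 3.89 and 0 in CC, and Os06g0712700 had 1273, 242 and 1157 in OVT against 0.972 and 0.851 in CC. G2-like genes were higher for 7 (41.2%) and lower for 2 (11.8%) of 17 (median 1.96). WRKY genes were higher for 6 (30%) and lower for 1 (5%) of 20 (median 0.26), beside 4.25% lower of all tested genes. With either CC library left out, the count of higher WRKY genes was 3 and that of lower G2-like genes was 1, and the 1 lower WRKY call was lost without CC MM05, OVT MM06 or OVT MM13. OsWRKY109 (Os05g0129800) had 218, 56.7 and 1253 in OVT against 0.972 and 0 in CC.

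The larger families held genes called in both directions. The shares lower in OVT were 3.70% for MYB and 3.125% for NAC genes, below the 4.25% of all tested genes. They were 7.32% for bHLH and 14.7% for ERF genes. The shares higher in OVT were 16.7% (MYB), 18.75% (NAC), 14.6% (bHLH) and 14.7% (ERF), beside 3.19% of all tested genes. MYB genes were higher for 9 and lower for 2 of 54 tested (median 0.11), NAC genes, among which Arabidopsis has regulators of xylem differentiation, higher for 6 and lower for 1 of 32 (median 0.71), and bHLH genes higher for 6 and lower for 3 of 41 (median 0.41). ERF genes were higher for 5 and lower for 5 of 34 (median 0.00), and none of 7 CO-like genes was called (median -0.60). With either CC library left out, 5 MYB, 3 bHLH and 3 ERF genes were higher, 3 NAC genes were higher without CC MM13, and 3 bHLH genes without OVT MM05. Of the lower genes, 1 MYB gene was called without CC MM05 or OVT MM05, no bHLH gene without CC MM05, no NAC gene without either CC library and 0 to 3 ERF genes without single libraries. The MYB gene Os05g0567600 had 2139, 2254 and 2313 in OVT against 28.2 and 51.0 in CC, and Os05g0579600 had 1360, 210 and 903 in OVT and was at 0 in both CC libraries, at least 301-fold higher in OVT. The NAC gene Os01g0191300 had 2349, 1001 and 546 in OVT against 18.5 and 5.10 in CC, a log2 difference of 5.73 ± 1.04, while Os04g0460600 had 0, 0.777 and 3.21 in OVT against 203 and 237 in CC (adjusted p = 0.017, and up to 0.11 with single libraries left out). OVT and CC libraries did not overlap in these 4 genes.

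HD-ZIP genes took the other direction, with none of 19 higher and 6 lower (median -0.51), a count that was 2 without CC MM05. The 6 were 31.6%, beside 4.25% of all tested genes. Os08g0136100 had 4.11, 0 and 3.21 in OVT against 954 and 429 in CC, a log2 difference of -5.72 ± 0.94. The NF-Y gene Os02g0725900 had 2.47, 119 and 54.6 in OVT against 4610 and 6029 in CC. Among 3 YABBY genes, which set the abaxial side of organs in Arabidopsis, Os07g0160100 was lower, with 97.0, 22.5 and 145 in OVT against 3019 and 1549 in CC (adjusted p = 0.0080, and 0.12 without CC MM05).

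**Figure D3:**
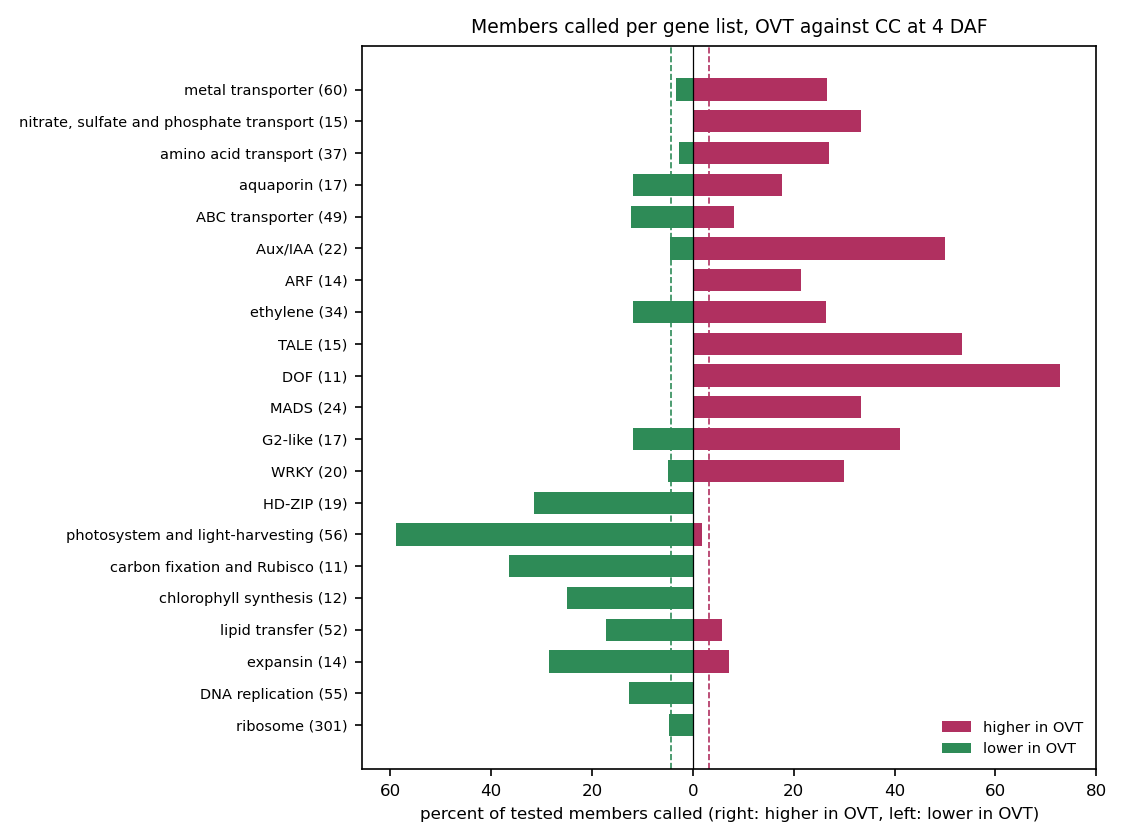
Percent of tested members called higher (right) and lower (left) in OVT than in CC at 4 DAF for 21 gene lists, with the number tested in parentheses and dashed lines at 3.19% and 4.25%, the shares of all tested genes. DOF, TALE and Aux/IAA genes reach furthest to the right, and photosystem and carbon fixation genes furthest to the left.

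Most tested photosystem genes were lower in OVT. Of 64 genes of the photosystems and the light-harvesting antenna 56 were tested. Of these 33 were lower (58.9%) and 1 was higher (1.79%) in OVT, beside 4.25% and 3.19% of all tested genes. The median log2 difference was -2.83 (-3.20 with bounds), beside -0.22 over all tested genes. In 43 of the 56 genes all OVT libraries lay below both CC libraries, beside 6127 of all 27527 tested genes (22.3%). The list made up 0.0652, 0.0393 and 0.0741% of the signal in OVT, against 1.05 and 0.964% in CC and 0.103, 0.268 and 0.114% in NE, and 52 of the 56 genes had a lower mean in NE than in CC. The antenna gene Os01g0720500 had 27.1, 6.22 and 0 in OVT against 1208 and 1442 in CC, a log2 difference of -6.19 ± 0.68 (adjusted p = 1.1e-06, limma). Os01g0600900 had 172, 166 and 246 in OVT against 9962 and 8097 in CC, Os03g0592500 had 86.6, 40.7 and 57.8 in OVT against 3192 and 2809 in CC, and Os07g0558400 had 53.4, 23.3 and 54.6 in OVT against 2027 and 2037 in CC. In these antenna genes all OVT libraries lay far below both CC libraries. The exception was Os04g0522800, with terms of the oxygen-evolving complex, which had 84.7, 322 and 485 in OVT against 12.6 and 2.55 in CC (adjusted p = 0.018, and up to 0.16 with single libraries left out).

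Carbon fixation and chlorophyll synthesis followed in part. Of 11 genes with carbon fixation or Rubisco terms 4 were lower (36.4%, beside 4.25% of all tested genes) and none higher in OVT (median -0.77). Of these, Os12g0207600, Os10g0356000 and Os01g0791033 carried ribulose-bisphosphate carboxylase terms, and their signals followed the same order over the 5 libraries, so reads may be shared between them. Os01g0791033 had 174, 109 and 345 in OVT against 6819 and 3700 in CC. Of 12 tested chlorophyll synthesis genes 3 were lower (25%) and none higher (median -2.03). Os03g0323200, with the magnesium chelatase term for the first step committed to chlorophyll, had 13.2, 0 and 3.21 in OVT against 481 and 839 in CC.

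**Figure D4:**
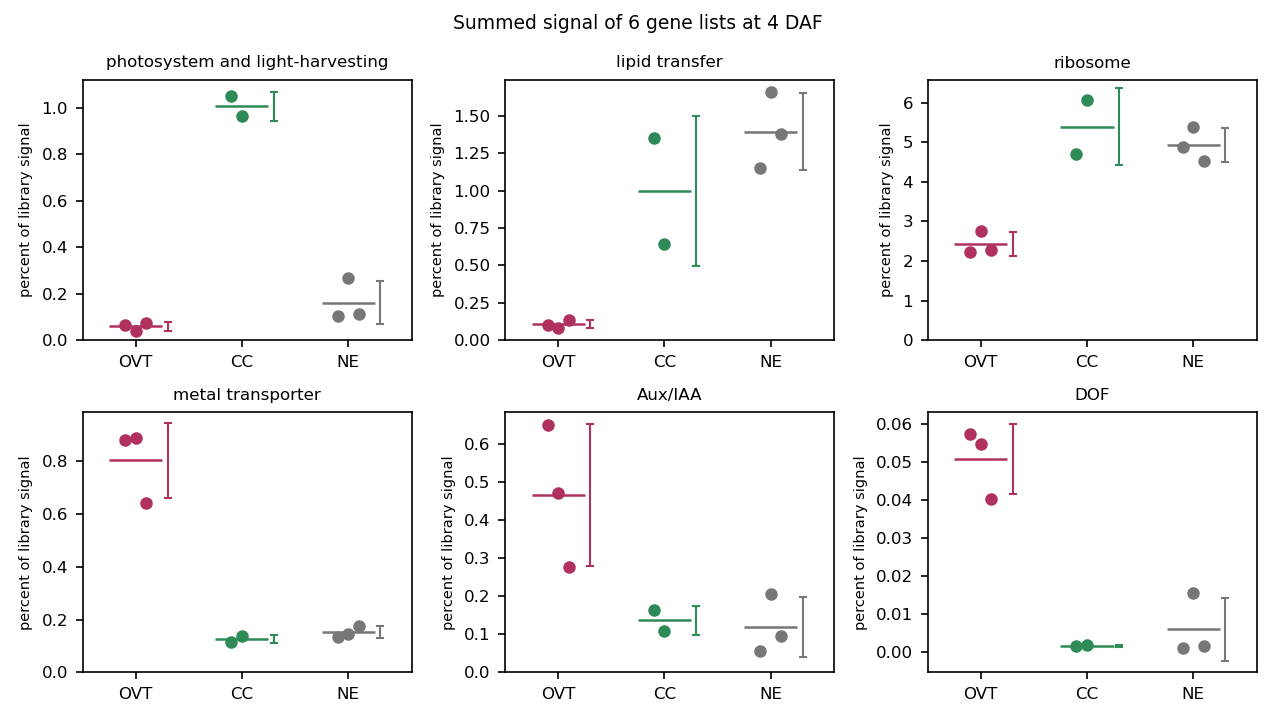
Summed signal of 6 gene lists as a percent of each library's total signal at 4 DAF in OVT, CC and NE; points are libraries, horizontal lines are means and bars beside them are ± SD (n = 3, 2 and 3). Photosystem genes lie at 0.0393 to 0.0741% in OVT against 0.964 to 1.05% in CC, and metal transporter genes at 0.640 to 0.887% in OVT against 0.115 to 0.136% in CC. The metal transporter sum follows abundant members such as Os06g0676000, while the median log2 difference of the list was 0.21.

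Of the 15 genes with the largest differences lower in OVT, 7 carried a GO term, among them the antenna gene Os01g0720500. The differences were between -5.85 and -7.25 on the log2 scale, with signals of 667 to 23720 in CC. In 10 of the 15 genes the NE mean was above the CC mean, and OVT MM13 was the highest OVT library in 8. Os10g0148100 had 3.29, 5.44 and 228 in OVT, 5834 and 5320 in CC and 13430, 7494 and 32220 in NE. Os06g0553200 had 15.6, 11.7 and 395 in OVT, 12640 and 6751 in CC and 21600, 24140 and 45590 in NE. Both lacked a GO term and were highest in NE. In contrast, Os02g0232500 had 6.58, 0.777 and 6.43 in OVT and 1091 and 949 in CC but only 144, 30.9 and 125 in NE. Os01g0175600, with an anion transport term, had 4.11, 0.389 and 3.21 in OVT against 2141 and 940 in CC, and its neighbour by number Os01g0175633 behaved alike in OVT and CC, so that both may share reads. The peroxidase Os11g0210100 had 0, 0 and 16.1 in OVT against 1181 and 937 in CC. The calls of Os01g0175633 and of the lipid transfer gene Os03g0808500 were lost without CC MM05 (adjusted p = 0.086 and 0.11).

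Lipid transfer genes, whose products carry lipids to cell walls and cuticles, were lower in OVT for 9 and higher for 3 of 52 tested genes (median -0.87). These were 17.3% and 5.77%, beside 4.25% lower and 3.19% higher of all tested genes. Without CC MM05 the counts were 1 lower and 1 higher. Without OVT MM06 or CC MM13, 1 was higher. Their summed share was 0.102, 0.0813 and 0.136% of the signal in OVT, 1.35 and 0.645% in CC and 1.15 to 1.66% in NE. Os03g0808500 had 89.6, 42.7 and 2124 in OVT against 23720 and 6970 in CC. The near-equal pair Os11g0115100 and Os12g0114800, which may share reads, had 94.9, 56.7 and 525 and 71.1, 41.2 and 705 in OVT against 6386 and 4710 and 6808 and 4687 in CC. Lipid transfer genes higher in OVT included Os05g0550300, with 1401, 497 and 2053 in OVT against 8.75 and 3.40 in CC.

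Wall-modifying genes were called in both directions, in small lists whose shares are set beside the 3.19% higher and 4.25% lower of all tested genes. The lower share was 28.6% for expansin and 12.3% for pectin-modifying genes, and the higher share was 13.6% for cellulose synthase genes. Expansin genes, which loosen walls in growing cells, were lower for 4 and higher for 1 (2 without OVT MM06) of 14 tested (median -0.11). Os05g0477600 had 68.2, 36.5 and 22.5 in OVT against 2972 and 2425 in CC, a log2 difference of -5.78 ± 0.92. Os03g0377100 had 196, 396 and 19.3 in OVT and 0 in both CC libraries (at least 74.5-fold higher in OVT by group means, with OVT MM13 far below the other OVT libraries). Pectin-modifying genes were lower for 8 and higher for 4 of 65 tested (median -0.84), counts that became 2 and 1 without CC MM05. The number lower was 5 without OVT MM13, and the number higher was 1 without CC MM13 and 2 without OVT MM05 or OVT MM06. Os12g0554800 had 2.47, 0 and 0 in OVT against 268 and 108 in CC (adjusted p = 0.0065, and up to 0.12 with single libraries left out), and Os01g0234499 had 69.9, 87.0 and 119 in OVT and 0 in both CC libraries (at least 33.6-fold higher in OVT). Laccase genes of lignin metabolism were higher for 2 and lower for none of 10 tested (median 0.39). Os03g0273200 had 276, 270 and 694 in OVT and Os01g0842500 had 204, 139 and 109 in OVT, while both were at 0 in CC, at least 151-fold and 55.1-fold higher in OVT. Cellulose synthase genes were higher for 3 of 22 tested (1 without CC MM13) and lower for none (median -0.60). Among 79 tested peroxidase genes 6 were higher (3 without CC MM05) and 8 lower (median 0.00), with Os05g0135500 at 353, 298 and 1809 in OVT against 0.972 and 0 in CC.

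Proteases were called in both directions. The shares of aspartic protease genes called were 10.2% in each direction, and those of serine carboxypeptidase genes 11.4% higher and 8.57% lower, beside 3.19% higher and 4.25% lower of all tested genes. Cysteine protease genes were near these with 2.70% higher and 5.41% lower. Aspartic protease genes were higher for 6 and lower for 6 of 59 tested (median 0.30), serine carboxypeptidase genes higher for 4 and lower for 3 of 35 (median -0.30), and cysteine protease genes higher for 1 and lower for 2 of 37 (median 0.00). Without CC MM05 the aspartic counts were 3 and 2 and that of lower carboxypeptidase genes was 1, and without CC MM13 the higher genes were 2 aspartic proteases and 2 carboxypeptidases, while of the cysteine protease calls all were lost without either CC library, the 2 lower ones without OVT MM06 or OVT MM13 and the 1 higher one without OVT MM05. The carboxypeptidase gene Os02g0634700 had 64.1, 30.3 and 12.9 in OVT against 1714 and 915 in CC, a log2 difference of -4.94 ± 0.99. Protein folding genes were lower for 12 and higher for 2 of 182 (median -0.43), shares of 6.59% and 1.10%, with 6 lower without CC MM05 and 1 higher without either CC library. Among them Os10g0154700 had 1179, 1462 and 2818 in OVT against 0.972 and 0 in CC, a log2 difference of 7.35 ± 0.69. Glycolysis genes were higher for 3 and lower for 3 of 51 (median -0.26), and the 3 higher calls were lost without CC MM05, CC MM13 or OVT MM13 and 1 was left without OVT MM05 or OVT MM06, while the number lower was 1 without CC MM05 and 5 without OVT MM06 or OVT MM13. P-type and V-type ATPases in the study's table were higher for 3 (1 without CC MM13) and lower for none of 16 (median -0.10).

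Growth-related housekeeping genes had negative medians, and those called were lower in OVT. Ribosomal protein genes were lower for 14 and higher for none of 301 tested, a share of 4.65% close to the 4.25% of all tested genes, although their median log2 difference was -0.85. The count of 14 was 5 without CC MM05 and 8 without CC MM13. Summed, they took 2.23, 2.77 and 2.28% of the signal in OVT against 4.70 and 6.08% in CC and 4.87, 5.39 and 4.53% in NE. These are shares of totals that were larger in OVT than in CC, most so in OVT MM13. Kinesin genes, motors of microtubule-based movement, had a median of -1.21 with 4 of 57 lower (7.02%), and DNA replication genes had a median of -1.08 with 7 of 55 lower (12.7%), and without CC MM05 each count was 1. Without CC MM13 the counts were 2 and 4, the kinesin count was 7 without OVT MM05, and that of DNA replication was 4 without OVT MM13. Kinesin genes summed to 0.302, 0.443 and 0.646% of the signal in OVT, 1.01 and 0.974% in CC and 0.810, 0.880 and 0.839% in NE. DNA replication genes summed to 0.0607, 0.0680 and 0.118% in OVT, 0.142 and 0.139% in CC and 0.125, 0.0891 and 0.0961% in NE. The reference gene OsUBQ5 (Os03g0234200) had 834, 943 and 1234 in OVT against 1393 and 1903 in CC (adjusted p = 0.59).

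Libraries of 8 DAF, 2 of OVT and 1 of CC, gave the same comparison in other captures, but the CC library held only 815254 estimated reads, in which 3 reads corresponded to 28.5 units of signal. The difference at 8 DAF had the same sign as at 4 DAF for 780 of the 877 genes higher in OVT (88.9%) and for 968 of the 1169 genes lower (82.8%), beside 56.5% of all tested genes. Os05g0111300 had 573400 and 227700 in OVT against 2776 in CC at 8 DAF, and the antenna gene Os01g0720500 was at 0 in both OVT libraries against 2848 in CC. For photosystem genes, 55 of 56 had the same sign at both stages. The difference at 4 DAF departed from that at 8 DAF for 448 genes (1.63% of those tested), of which 12 were among the named genes. The amino acid transport gene Os05g0424000 had 0 and 296 in OVT against 0 in CC at 8 DAF, and its differences of 8.26 at 4 DAF and 2.47 at 8 DAF departed by 5.79 ± 1.41 (SE, adjusted p = 0.034, limma). The CC primer gene Os10g0116400 was at 0 in both OVT libraries against 3252 in CC at 8 DAF, which departed from its difference at 4 DAF by 7.85 ± 0.48 (adjusted p = 4.1e-10, limma). Every departure rests on this 1 CC library of 8 DAF, which the fit assumes to vary like the other groups, so the SE and p hold no replicate spread of CC at that stage.

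**Figure D5:**
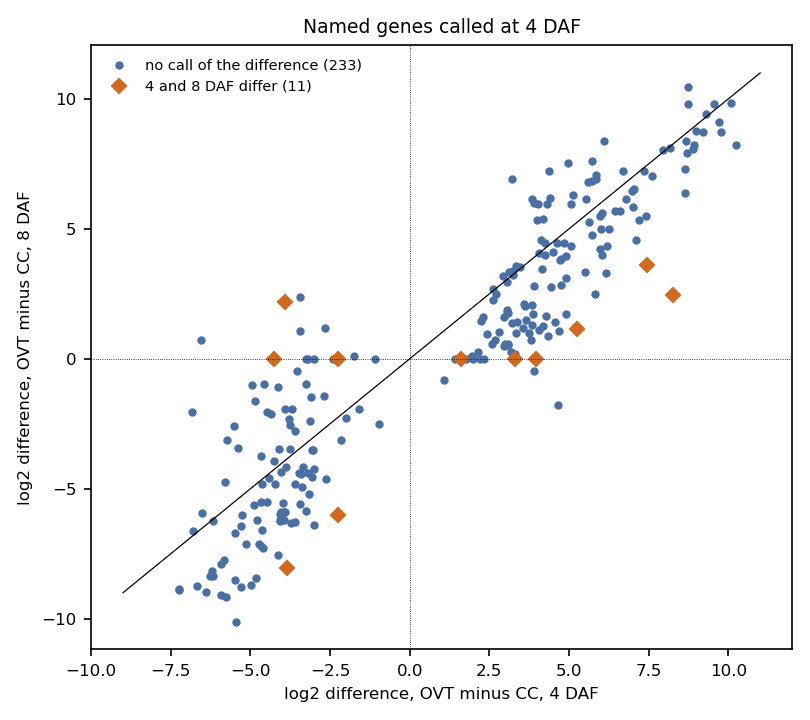
Log2 difference of OVT minus CC at 8 DAF against that at 4 DAF for the 244 named genes called at 4 DAF, with the line of equality. Diamonds mark the 11 genes whose differences departed from each other between the stages; most genes keep their side of 0, and 1 CC library stands behind every value at 8 DAF.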

How the data were processed

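Laser-captured tissue was extracted with the RNeasy Micro kit, amplified with the SMARTer Ultra Low kit (15 PCR cycles) and sequenced as single-end reads of 126 bases on a HiSeq 2500. STAR, edgeR and the build IRGSP-1.0 are named in the submitters' processing notes. The deposited table holds normalised signal per gene, not raw counts: most low values (92.2 to 95.1% within 0.03 read) were whole multiples of what 1 read is worth in their library, but not enough to recover counts, so edgeR was not run here. The authors' own comparison columns were not used, and 1 signal column that matched no sample was left out. Reads had no molecular identifiers, so the floor of 3 reads covers counting error only.

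Genes with a signal above 10 and at least 10 estimated reads in 1 or more libraries were tested with limma 3.58.1 in R 4.3.3 on log2(signal + 10), with 1 mean per tissue and stage over all 28 libraries (trended, robust variances, 15 residual degrees of freedom, two-sided, Benjamini-Hochberg). The script was tested on simulated data. Groups were taken from the titles, and the lone CC library of 8 DAF was assumed to vary like the other groups. Named genes were the 15 largest called differences in each direction with groups apart, the 10 most abundant, up to 4 called members of each list in its main direction and 2 in the other, and genes named in the study. The members and lists were chosen with earlier results of these data known. Gene lists came from GO terms in the deposited table or from the study's tables.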

Additional observations from a re-analysis of the deposited data

Results flagged for a closer look

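For 12 of the named genes the OVT minus CC difference on the log2 scale departed between 4 and 8 DAF by the test of the difference itself (limma, adjusted p below 0.05). CC at 8 DAF has 1 library, in which 3 reads correspond to 28.5 units of signal, and the part of its depth in these departures was not tested. The difference at 4 DAF exceeded that at 8 DAF by 5.79 in Os05g0424000 and 3.83 in Os12g0181500 (amino acid transport), 3.96 in Os01g0842500 and 4.13 in Os03g0273200 (laccases), 3.32 in Os08g0103900 (NAC factor) and 1.61 in Os04g0525700 (serine carboxypeptidase), all higher in OVT at 4 DAF. It exceeded it by 7.85 in Os10g0116400 (the CC primer gene C3), 4.21 in Os02g0833900 (peroxidase) and 3.75 in Os09g0461500 (gibberellin list), which were at 0 in both OVT libraries and high in the CC library at 8 DAF. The departure was -4.26 in Os02g0727100 (the CC primer gene C1) and -2.26 in Os01g0935800 (brassinosteroid list), both at 0 in all libraries of OVT and CC at 8 DAF, and -6.11 in Os02g0797400 (DNA replication), which had 32.9 and 398 in OVT against 19.0 in CC at 8 DAF.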

How the results depend on the processing

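No named gene that was called changed direction under any alternative run. Of 273 named genes fitted, 8 changed sign, of which 0 were called. Os04g0453200 became -0.85 with a pseudocount of 1 and -0.17 with voom, and Os07g0422700 became 0.049 with the title prefix as a covariate. Without single libraries the log2 differences were -1.08 to 1.19 for Os04g0453200, -0.68 to 2.06 for Os08g0189100, -1.22 to 0.016 for Os07g0440900, -1.26 to 3.93 for Os03g0197100, -2.51 to 0.021 for Os10g0419300, -0.68 to 0.011 for Os12g0132500 and -0.17 to 0.88 for Os11g0135300. The median of 14 of 64 lists changed sign, all of them lists whose median was between -0.50 and 0.49. Among those given in the report, sugar carriers became 0.08 with the title prefix and 0.02 without CC MM05, P-type and V-type ATPases 0.24 with the title prefix and 0.03 with TMM factors, and brassinosteroid genes 0.12 and 0.06 with the same settings. Gibberellin genes became 0.14 with voom, abscisic acid genes 0.04 without CC MM13, expansin genes 0.01 with voom and MYB genes -0.08 with a pseudocount of 1. The counts of 877 higher and 1169 lower genes became 461 and 538 with only the 9 libraries of 4 DAF, 357 and 747 with only the 5 libraries compared, 542 and 598 with voom weights on estimated reads, and 1900 and 3229 at an unadjusted p below 0.05 with more than 2-fold. Leaving out single libraries gave 489 to 906 higher and 702 to 1156 lower. The 33 photosystem genes lower in OVT became 17 with 5 libraries and 23 to 35 without single libraries. The 11 Aux/IAA genes became 3 with 9 libraries, 2 with 5 libraries, 6 with a pseudocount of 1, 7 without the filter, 7 with voom and 4 to 8 without single libraries. The 16 metal transporter genes became 7 with 5 libraries, 9 with voom and 9 to 17 without single libraries. The 448 genes that departed between 4 and 8 DAF became 266 with a pseudocount of 1, 830 with a pseudocount of 30, 295 with TMM factors and 446 to 547 without single libraries. The departure was positive for 299 of the 448 but for 76 of 266 with a pseudocount of 1, 641 of 830 with a pseudocount of 30, 188 of 295 with TMM factors and 210 of 456 without CC MM13. ABC transporter calls of 4 higher and 6 lower became 6 and 2 without OVT MM06. The voom fits and the alternatives of the stage comparison were chosen after seeing the data. Of 244 named genes called, 131 were called without each library in turn, and 95 lost their call without CC MM05. TMM factors gave 867 and 931 and upper-quartile factors 813 and 1001. Fits that leave a group with 1 library assume that it varies like the other groups. The planned edgeR test was not run because whole reads could not be recovered.

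Same-numbered OVT and CC libraries deviated from their group means with r = 0.05 (MM05) and 0.02 (MM13). The deviations of the 2 CC libraries are exact opposites, so these values cannot decide whether the number marks a pairing. Same-numbered NE and CC libraries had r = 0.15 (MM05) and 0.11 (MM13), and NE and OVT libraries -0.012 (MM05), 0.0019 (MM06) and 0.042 (MM13). The main fit did not use the number. With the number as a replicate block Os04g0453200 became -0.41 and Os11g0135300 -0.28, and the counts were 757 higher, 970 lower, 30 photosystem, 4 Aux/IAA, 16 metal transporter and 325 stage departures.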
